A study of Sus scrofa with 60 samples.

Results

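The genes described here are 37 members of the focal adhesion and actin cytoskeleton machinery, taken by gene symbol from a table of liver read counts with 30335 named genes. All 37 were in the table and all passed the filter on low counts, so none is missing from the tests. The symbols were a given list of adhesion and cytoskeleton genes, chosen with earlier results of these data known. XIRP1 and EZR are treated in most detail. The study asked whether the lipid used in parenteral nutrition (PN) changes liver injury when bile flow is blocked, in newborn pigs delivered slightly preterm by cesarean section. Pigs had bile duct ligation (BDL), in which the cystic and common bile ducts are tied, or a sham operation in which the liver was only handled. Each pig was fed enterally with a milk replacer (ENT) or intravenously with a soybean oil emulsion (SLE, Intralipid) or a mixed emulsion that contains fish oil (MLE, SMOFlipid). Liver was taken at day 14, and bulk RNA was sequenced. The sham groups held 12 ENT, 10 SLE and 9 MLE pigs, and the BDL groups 10, 11 and 8.

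All groups share several conditions that limit them as a model. Sows were of mixed breed, both sexes were used, every pig had abdominal surgery and a jugular catheter, and the enterally fed pigs also began life on intravenous nutrition and were moved gradually to full enteral feeding. The libraries hold poly-A RNA of whole liver tissue. In such bulk samples, more cells of a type and more RNA per cell cannot be told apart.

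Integrins are transmembrane receptors made of an alpha and a beta chain that bind collagens, laminins, fibronectin or vitronectin outside the cell. Inside the cell, talin, vinculin, paxillin, zyxin and the complex of integrin-linked kinase, PINCH and parvin join them to actin filaments, which alpha-actinins and filamin crosslink, tropomyosins coat and myosin II pulls. Ezrin, radixin and moesin tie the actin cortex to the plasma membrane. In liver, radixin is the main linker of this kind at the bile canaliculus of hepatocytes, ezrin is typical of bile duct epithelium, and moesin is abundant in endothelial cells and leukocytes. XIRP1 and ANKRD1 are best known from striated muscle, where XIRP1 binds actin through its Xin repeats and ANKRD1 is a stress-induced ankyrin repeat protein.

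Expression is given as CPM, counts scaled to a common library total, where the library size was adjusted by trimmed mean of M-values (TMM) scaling, and CPM per kilobase (kb) of gene length is used where genes are compared with each other. Libraries held 14469788 to 21374161 counted reads. A gene was said to rise or fall where edgeR's quasi-likelihood test, fitted to all 60 pigs and 16210 genes, gave an adjusted p (Benjamini-Hochberg) under 0.05, at any fold change. Changes are log2 fold changes with their standard error (SE), and levels are mean ± SD over pigs. Each pig's label also carries a 3-digit identifier number with 8 values, 4 of them among MLE pigs, whose meaning the labels do not state, and it was entered as a block in an alternative fit.

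Some libraries stood apart. Among 1770 pairs of libraries, ENT-sham replicate 2 and ENT-BDL replicate 1 were the closest, with a chi-square per degree of freedom of 1.91, whereas the next closest pair had 16.1 and the median pair within a group had 53.4. ENT-sham replicate 2 was the lowest or highest pig of its group for 20 of the 37 genes, the highest in 18 of them. In XIRP1 and ANKRD1 it had 15.2 and 21.1 CPM, within the range of ENT-BDL, whereas the other ENT-sham pigs had at most 0.502 and 1.27. ENT-BDL replicate 1, at 13.7 and 20 CPM, lay within the range of the other ENT-BDL pigs for these genes. These 2 libraries carry different pig labels with the same identifier number, and whether a label is wrong or RNA was shared cannot be told from the counts, so they may not be 2 independent pigs of their groups. Both were kept under their labels, and results on ENT pigs whose call they change are given without both. ENT-BDL replicate 4 was the lowest or highest of its group for 21 genes (10 lowest and 11 highest), and without it 14 genes rose and 1 fell with BDL in ENT pigs instead of 13 and 2. MLE-BDL replicate 3 was the highest of its group for 18. Replicates 9 and 10 of SLE-sham share 1 pig label and may be 1 animal, although they differed more (chi-square of 34.2 per degree of freedom) than the closest pairs did. They were counted as 2, and without replicate 9 or without replicate 10 the number of genes called with BDL in SLE was 6 in place of 8.

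Per kilobase, the most abundant of the 37 genes was ACTG1 at 571 CPM per kb, averaged over the 6 group means, followed by ACTB at 179, TAGLN2 at 115, CSRP1 at 76.6 and TPM4 at 65. The least abundant was TLN2 at 0.486 CPM per kb, below ITGA3 at 0.742, XIRP1 at 0.945, ITGB4 at 1.33, ITGA2 at 1.42 and ANKRD1 at 1.98. ACTN4 varied least between pigs of a group, with a median coefficient of variation of 5.65% over the 6 groups when the matching ENT libraries were left out, and XIRP1 varied most, with 88.1%. The median of this measure over the 37 genes was 13.7%, and it passed 30% for XIRP1, ANKRD1, CAV1 and ITGA3.

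BDL was associated mostly with higher expression of these genes. Because the list was chosen with earlier results of these data known, its shares describe the list and are not an independent test. In ENT pigs 13 of 37 rose (35.1%), against 8.89% of all genes tested, and 2 fell (5.41%), against 8.53% of all genes. In SLE pigs 8 rose (21.6%, against 2.97% of all genes) and 0 fell (against 1.57%). In MLE pigs 12 rose (32.4%, against 7.85%) and 0 fell (against 6.58%). Among ENT pigs DESeq2 called 13 genes higher and 3 lower, and on SLE and MLE it called 8 and 12 higher and 0 lower. In edgeR 19, 14 and 19 of the 37 genes had an unadjusted p under 0.05, as had 4869, 2963 and 4511 of all 16210 genes. The SLE count rested partly on single pigs and was 4 without SLE-BDL replicate 9 and 5 without replicate 2. Surgery was also partly mixed with identifier number in SLE. SLE-BDL replicates 1 to 5 shared an identifier number that no SLE-sham pig had. SLE-sham replicates 7 and 8 had numbers that no SLE-BDL pig had. With the identifier block 10 genes rose in SLE, where ACTG1, ITGA2 and MYH9 were gained and TPM4 was lost. The ENT count was 9 where only the ENT groups were fitted, and FLNA, VCL, PXN, ILK, ITGA5 and XIRP1 were then not called. The median log2 fold change of the 37 genes was 0.12 in ENT, 0.16 in SLE and 0.24 in MLE, whereas the median of all genes lay between 0.004 and 0.006.

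Most of the rises were small. Only 3 members on each diet rose by more than 2-fold, a limit that 2.19% of all genes passed in ENT, 1.2% in SLE and 2.55% in MLE. These were XIRP1, ANKRD1 and ITGA3 in ENT and SLE, and XIRP1, ANKRD1 and ITGA2 in MLE. EZR, FLNA, VCL, TPM4, XIRP1 and ANKRD1 rose on all 3 diets, and ACTG1, LIMS1, ITGA2, ITGA3 and TAGLN2 rose on 2. MSN, PXN, ILK, ITGA5, ITGB5, MYH9 and TES were called on 1 diet, and the other 19 genes on none. Without the matching ENT libraries all 15 calls in ENT remained, and PARVA was also lower.

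**Figure D1:**
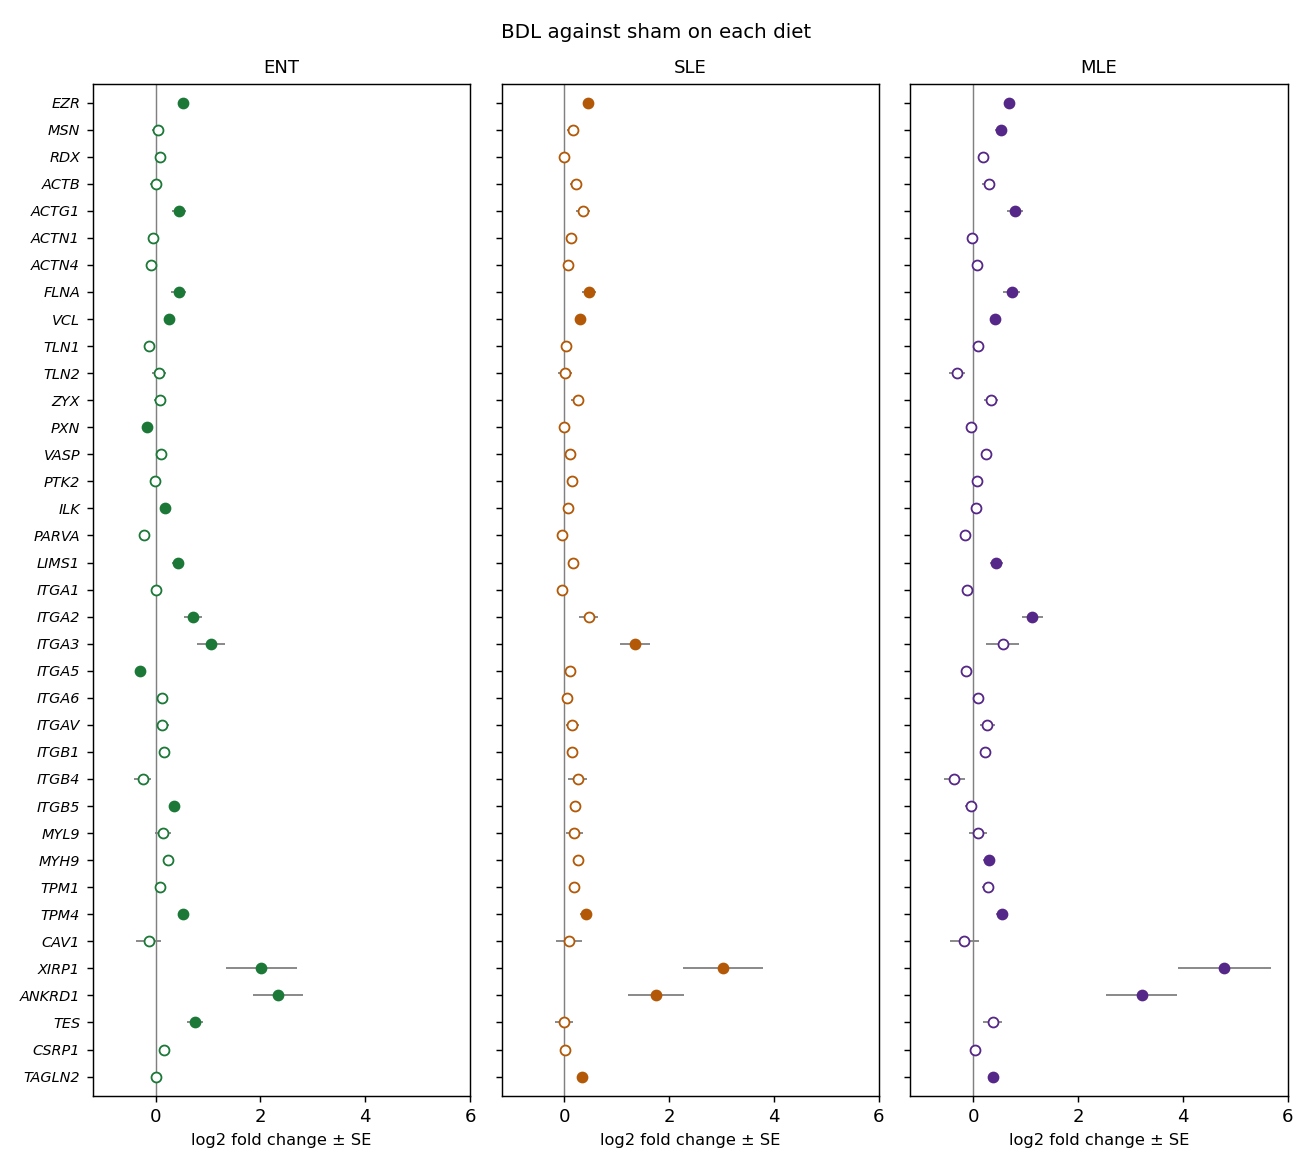
Log2 fold change of BDL over sham (x axis, with its SE as a horizontal line) for each of the 37 genes on ENT (n = 12 sham and 10 BDL), SLE (10 and 11) and MLE (9 and 8), ordered by role. Filled points passed an adjusted p under 0.05 in edgeR and open points did not. XIRP1 and ANKRD1 lie farthest to the right on every diet, with XIRP1 at 2.02, 3.03 and 4.79 on the 3 diets, and most other genes lie within 1 of 0.

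XIRP1 (chromosome 13, 23867476 to 23876850, minus strand of Sscrofa11.1) had the largest rise of the 37 genes in SLE and in MLE pigs. In ENT-sham the lowest pig had 0 CPM, the median was 0.126 and the highest, replicate 2, had 15.2. The other 11 ENT-sham pigs had at most 0.502 CPM, and 8 of the 12 had 3 counts or fewer, which was taken as the floor. In ENT-BDL the pigs ranged from 0.806 to 27.1 CPM with a median of 2.47. Replicates 2 (27.1), 1 (13.7) and 3 (7.1) were the highest, and every ENT-BDL pig was above every ENT-sham pig other than replicate 2.

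On the parenteral diets the sham levels of XIRP1 were low but mostly countable. SLE-sham pigs ranged from 0.476 to 2.26 CPM (median 1.03), and SLE-BDL pigs from 1.14 to 28.1 (median 4.29). Replicates 7 (28.1) and 9 (23.1) were highest among the SLE-BDL pigs, and 9 of 11 BDL pigs were above every sham pig. MLE-sham pigs ranged from 0.0598 to 1.34 CPM (median 0.67), and MLE-BDL pigs from 5.72 to 28.1 (median 18.4). The MLE groups did not overlap, although 3 MLE-sham pigs (replicates 1, 2 and 4, at 0.0598, 0.0641 and 0.0696 CPM) lay at the floor and apart from the other 6, which had 0.406 to 1.34.

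The log2 fold change of XIRP1 was 3.03 in SLE (SE 0.76, adjusted p = 0.0125), which is 8.19-fold, and 4.79 in MLE (SE 0.89, adjusted p = 0.000116), which is 27.68-fold. With any 1 pig left out these values ran from 2.69 to 3.21 and from 4.62 to 5.02, and all stayed past the threshold. In ENT the log2 fold change was 2.02 (SE 0.68, adjusted p = 0.0316), and it depended on single pigs. It was 5.14 without ENT-sham replicate 2 and 1.33 without ENT-BDL replicate 2 (adjusted p = 0.183), and 9 of the 22 fits that left out 1 pig missed the threshold. Without both matching libraries it was 4.93 (adjusted p = 1.91e-07), with ENT-sham at 0.171 ± 0.165 and ENT-BDL at 5.29 ± 8.41 CPM. With the identifier block the log2 fold changes were 3.04, 3.09 and 4.63 in ENT, SLE and MLE, all past the threshold.

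Among sham pigs, the XIRP1 level of SLE-sham (1.1 ± 0.469 CPM) was set against ENT-sham (1.42 ± 4.34 with all pigs). With all pigs the log2 difference was -0.45 (SE 0.75, adjusted p = 0.705). Without the matching libraries it turned to 2.66 (adjusted p = 0.00435), and with the identifier block it was 1.93 (adjusted p = 0.0444). All SLE-sham pigs but replicate 8 (0.476) lay above the 11 other ENT-sham pigs. MLE-sham was not called against ENT-sham in either case (-1.30 with all pigs and 1.81 without both, adjusted p = 0.286 and 0.1).

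ANKRD1 (chromosome 14, 102603777 to 102612857) also rose on every diet. ENT-sham pigs had 0.187 to 21.1 CPM (median 0.585), with replicate 2 again the highest and all others at 1.27 or less. ENT-BDL pigs had 4.5 to 26.2 CPM (median 9.45), the highest being replicate 4. The log2 fold change was 2.33 (SE 0.48, adjusted p = 0.000396), and 4.20 without the matching libraries, in which case the 2 groups did not overlap.

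SLE-sham pigs had 0.512 to 1.93 CPM of ANKRD1 (median 0.871) and SLE-BDL pigs 1.81 to 6.84 (median 3.74). The log2 fold change in SLE was 1.75 (SE 0.54, adjusted p = 0.0465), close to the threshold, and 15 of 21 fits without 1 pig missed it, with adjusted p of up to 0.0874 (without SLE-BDL replicate 1). Without the matching ENT libraries, which also set the spread shared by all groups, the adjusted p in SLE was 0.000109. MLE-sham pigs had 0.067 to 0.658 CPM (median 0.375) and MLE-BDL pigs 1.38 to 4.88 (median 3.08), with no overlap, and the log2 fold change was 3.21 (SE 0.67, adjusted p = 0.000483).

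XIRP1 and ANKRD1 did not have the same order of levels over the BDL groups. XIRP1 averaged 17.1 ± 9.24 CPM in MLE-BDL, 9.12 ± 9.15 in SLE-BDL and 6.13 ± 8.36 in ENT-BDL, and neighbours in that order were not called apart (MLE minus SLE 0.91, adjusted p = 0.609, and SLE minus ENT 0.56, adjusted p = 0.605), although the identifier block put SLE above ENT by 1.98 (adjusted p = 0.00411). ANKRD1 averaged 11.9 ± 6.72 CPM in ENT-BDL, 3.6 ± 1.53 in SLE-BDL and 3.22 ± 1.37 in MLE-BDL. It was lower in SLE-BDL than in ENT-BDL by a log2 difference of -1.73 (SE 0.49, adjusted p = 0.00859) and lower in MLE-BDL by -1.89 (SE 0.55, adjusted p = 0.0121). MLE-BDL was above ENT-BDL in XIRP1 by 1.47 (SE 0.71, adjusted p = 0.152) with all pigs, by 1.67 (adjusted p = 0.0235) without the matching libraries, and by 2.66 (adjusted p = 0.00491) with the identifier block.

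**Figure D2:**
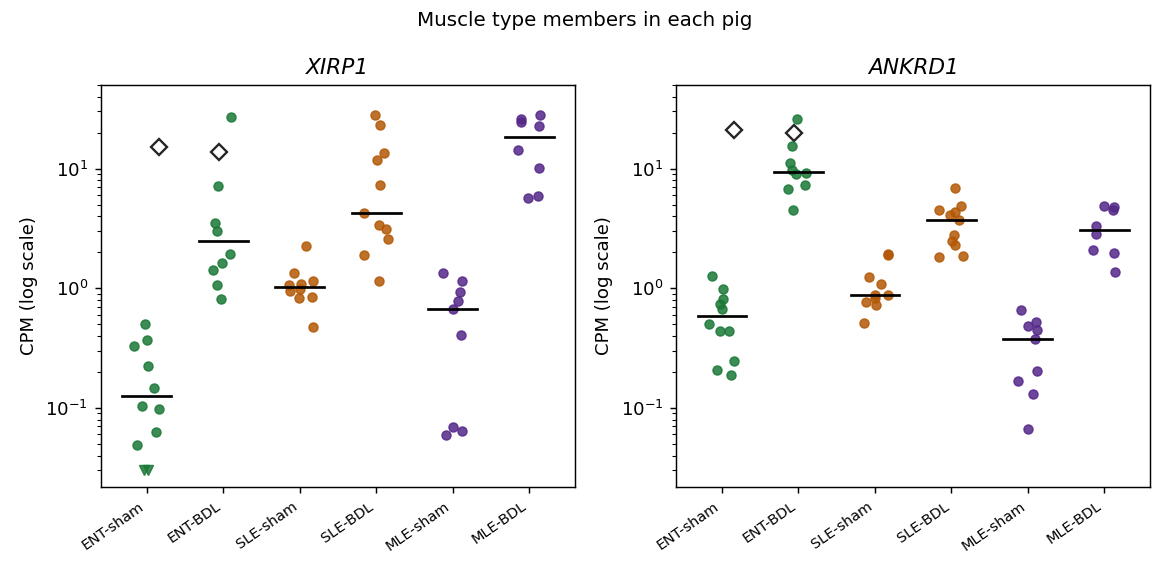
CPM of XIRP1 and ANKRD1 in each pig (y axis, log scale) by group (x axis). Each point is 1 pig, the line is the group median, open diamonds are ENT-sham replicate 2 and ENT-BDL replicate 1, and downward triangles at the bottom are pigs with 0 reads. For XIRP1 the BDL medians of 2.47, 4.29 and 18.4 CPM stand above the sham medians of 0.126, 1.03 and 0.67, and the diamond in ENT-sham stands at 15.2.

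Genes that define striated muscle were mostly at or near 0, and those tested did not share 1 direction. Of 23 such markers 21 were in the table and 8 had enough counts to be tested. MYL1, a fast skeletal myosin light chain, had 0 reads in all 60 pigs, and ACTA1, the skeletal muscle actin, averaged at most 0.0483 CPM in any group. TNNT1 rose in ENT (log2 fold change 0.78, adjusted p = 0.0468) and NEB, the nebulin of the thin filament, fell in ENT (-1.18, adjusted p = 0.0111) and MLE (-2.04, adjusted p = 0.000345). TNNI2, the most abundant of the list, fell in SLE (-1.14, adjusted p = 0.0416). Their part in the levels of XIRP1 and ANKRD1 was not tested. The 21 markers summed to 11.6 to 21.6 CPM in ENT-sham, 16.4 to 26.2 in ENT-BDL, 19.8 to 81.5 in SLE-sham, 8.89 to 33.4 in SLE-BDL, 18.6 to 68.2 in MLE-sham and 25.5 to 50.1 in MLE-BDL. XIRP2, the paralog of XIRP1, stayed between 0.258 and 0.416 CPM in all group means and was too low to be tested.

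EZR (chromosome 1, 8403362 to 8452750, plus strand), the gene of ezrin, had the smallest adjusted p of the 37 genes in ENT, SLE and MLE pigs. ENT-sham pigs had 46.1 to 101 CPM (median 56.3), where replicate 2 was the highest and the others reached 74.8. ENT-BDL pigs had 70.9 to 103 CPM (median 89.6). With all pigs 1 of 10 BDL pigs was above every sham pig, and without the matching libraries this was so for 7 of 9.

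In SLE-sham the EZR level ran from 58.9 to 77.7 CPM (median 68.3) and in SLE-BDL from 77.4 to 132 (median 90.5). The highest was SLE-BDL replicate 6, and 10 of 11 BDL pigs were above every sham pig. In MLE-sham it ran from 48 to 64.3 CPM (median 59.6) and in MLE-BDL from 86.4 to 101 (median 90.9), with no overlap.

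The rise of EZR was 1.44-fold in ENT (log2 0.52, SE 0.09, adjusted p = 2.45e-05), 1.36-fold in SLE (0.44, SE 0.09, adjusted p = 0.00301) and 1.60-fold in MLE (0.68, SE 0.10, adjusted p = 4.31e-06). All fits that left out 1 pig kept these calls, with ranges of 0.50 to 0.60, 0.38 to 0.46 and 0.64 to 0.69. Without both matching libraries the ENT value was 0.59. The response did not pass the test of a difference between diets (adjusted p of 0.832 for SLE against ENT, 0.81 for MLE against ENT and 0.593 for MLE against SLE). BDL groups lay at 87.7 ± 9.72 CPM in ENT, 93.3 ± 16.7 in SLE and 93.1 ± 5.61 in MLE, within 0.09 of each other on the log2 scale. Among sham pigs SLE was above ENT by 0.17 (SE 0.09, adjusted p = 0.149), by 0.26 (adjusted p = 0.00992) without the matching libraries, and by 0.30 (adjusted p = 0.00863) with the identifier block and all pigs kept.

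MSN and RDX are the genes of moesin and radixin. In MLE pigs MSN rose by 0.53 (SE 0.12, adjusted p = 0.00158), and its level was 85.4 ± 14.1 CPM after sham and 123 ± 23.4 after BDL. It was at 0.05 in ENT and 0.16 in SLE (adjusted p = 0.807 and 0.469), and no difference in response between diets was called for it. RDX was called on no diet, with log2 fold changes of 0.08, 0.00 and 0.19. Per kilobase RDX was the most abundant of the 3 linkers on average (37.7 CPM per kb), above EZR (27.7) and MSN (23.8).

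**Figure D3:**
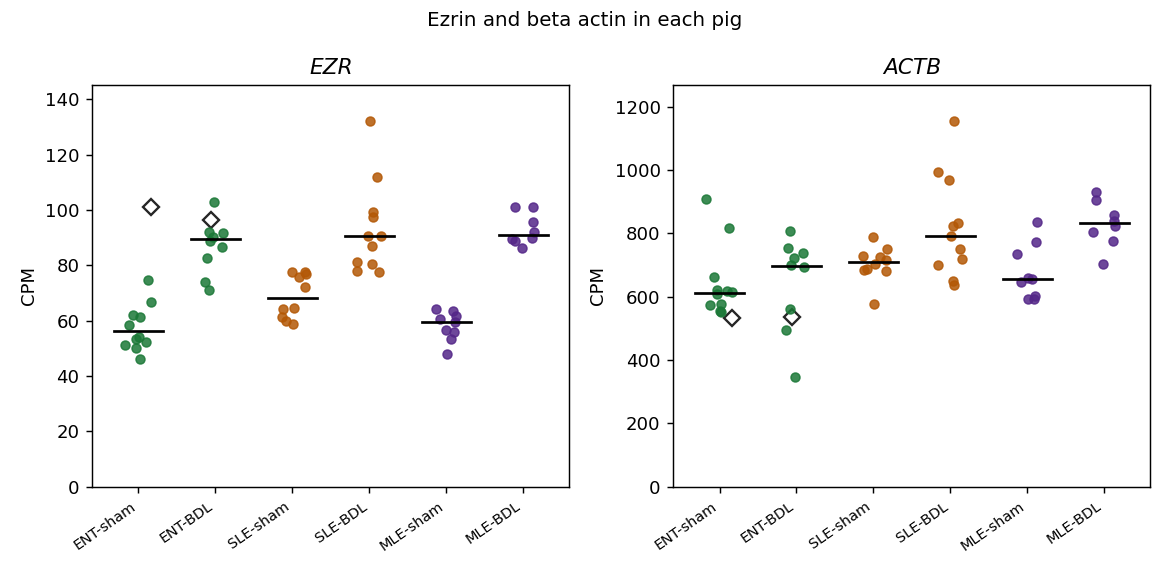
CPM of EZR and ACTB in each pig (y axis, linear from 0) by group (x axis), with 1 point per pig, the group median as a line and open diamonds for ENT-sham replicate 2 and ENT-BDL replicate 1. EZR medians were 56.3, 68.3 and 59.6 CPM in the sham groups and 89.6, 90.5 and 90.9 in the BDL groups, whereas ACTB pigs of sham and BDL groups overlapped on all diets.

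Markers of bile duct cells, a list also chosen with earlier results of these data known, rose beside EZR. Of 14 cholangiocyte markers 9 rose in ENT (64.3%, against 8.89% of all genes), 4 in SLE (28.6%, against 2.97%) and 10 in MLE (71.4%, against 7.85%), and 0 fell. KRT7 and ANXA4 rose on every diet (KRT7 by 1.86, 1.46 and 1.83), while KRT19 rose in ENT (1.34) and MLE (1.46) but not in SLE (0.52, adjusted p = 0.262). The 14 genes summed to 551 to 1327 CPM in ENT-sham (at most 909 without replicate 2), 948 to 1647 in ENT-BDL, 811 to 1113 in SLE-sham, 969 to 1665 in SLE-BDL, 666 to 1044 in MLE-sham and 986 to 1517 in MLE-BDL. Their part in the rise of EZR was not tested.

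Of the cytoplasmic actins, ACTG1, gamma actin, rose in ENT and MLE, and ACTB, beta actin, was called on no diet. The difference between the 2 genes was not tested. ENT-sham pigs had 677 to 1282 CPM of ACTG1 (median 1046) and ENT-BDL pigs 951 to 1698 (median 1259), and MLE-sham pigs had 626 to 1123 (median 769) and MLE-BDL pigs 970 to 1603 (median 1457). In MLE 7 of 8 BDL pigs were above every sham pig. The log2 fold changes were 0.45 (SE 0.13, adjusted p = 0.00917) in ENT and 0.79 (SE 0.15, adjusted p = 0.000108) in MLE. SLE-sham (661 to 1356, median 1031) and SLE-BDL (927 to 2009, median 1232) overlapped (0.35, SE 0.13, adjusted p = 0.116), and the identifier block called ACTG1 there as well (0.51, adjusted p = 0.00751).

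ACTB was the gene that the study used to normalise its quantitative PCR. Its log2 fold changes were -0.00 in ENT (SE 0.10), 0.22 in SLE (SE 0.11, adjusted p = 0.245) and 0.29 in MLE (SE 0.12, adjusted p = 0.0799). ENT-sham pigs had 533 to 909 CPM (median 611) and ENT-BDL pigs 345 to 808 (median 697), the lowest being replicate 4. SLE-BDL pigs had 636 to 1153 CPM (median 790) and MLE-BDL pigs 703 to 930 (median 832). Against ENT-BDL, ACTB was higher in SLE-BDL by 0.37 (SE 0.11, adjusted p = 0.00898) and in MLE-BDL by 0.39 (SE 0.11, adjusted p = 0.0126). The latter was 0.32 and missed the threshold with the identifier block (adjusted p = 0.0862). The coding sequences of ACTB and ACTG1 are close to each other and to other actin genes, so reads may have been split between them in ways the counts do not show.

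Of the actin crosslinkers, FLNA rose on every diet and the alpha-actinins ACTN1 and ACTN4 on none. ENT-sham pigs had 86.1 to 227 CPM of FLNA (median 98.1, at most 137 without replicate 2) and ENT-BDL pigs 94.7 to 236 (median 157). SLE pigs had 90.8 to 177 (median 116) after sham and 129 to 229 (median 164) after BDL, and MLE pigs 91.3 to 148 (median 107) and 137 to 258 (median 175). In MLE 7 of 8 BDL pigs were above every sham pig, against 4 of 11 in SLE. The log2 fold changes were 0.44 (SE 0.14, adjusted p = 0.0178), 0.47 (SE 0.14, adjusted p = 0.0375) and 0.73 (SE 0.16, adjusted p = 0.000599). The SLE call was lost in 13 of 21 fits without 1 pig, with adjusted p of up to 0.0864 (without SLE-BDL replicate 2), and the ENT call without ENT-BDL replicate 1 (adjusted p = 0.0656).

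VCL, vinculin, was the adhesion adaptor that rose on every diet, by smaller amounts. ENT-sham pigs had 55.3 to 84.8 CPM (median 59.8) and ENT-BDL pigs 46.2 to 91.7 (median 75.6), where replicate 5 was below every sham pig. SLE pigs had 56.8 to 73.2 (median 61.4) after sham and 68.2 to 91.6 (median 77.6) after BDL, and MLE pigs 47.1 to 72.3 (median 56.5) and 62.6 to 105 (median 81.9). The log2 fold changes were 0.26 (adjusted p = 0.0238), 0.30 (adjusted p = 0.0255) and 0.42 (adjusted p = 0.000977), with SE of 0.08, 0.08 and 0.09. The ENT call was lost in 2 of 22 and the SLE call in 4 of 21 fits without 1 pig, at most without ENT-BDL replicate 2 (0.0682) and SLE-BDL replicate 2 (adjusted p = 0.0557). The other adaptors TLN1, TLN2, ZYX and VASP were called on no diet, and PXN, paxillin, fell in ENT by 0.17 (SE 0.06, adjusted p = 0.0497), a call lost in 13 of 22 fits without 1 pig, at most without replicate 4 of ENT-BDL (adjusted p = 0.165).

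Integrin-linked kinase, PINCH and parvin form 1 complex, and their genes were not all called in the same comparisons. LIMS1, which encodes PINCH1, rose in ENT and MLE. ENT-sham pigs had 45.9 to 101 CPM (median 48), where the 11 pigs other than replicate 2 had at most 50.3, and ENT-BDL pigs had 52.8 to 96.5 (median 65.8), so that the groups did not overlap without the matching libraries. MLE-sham pigs had 36.7 to 47.2 CPM (median 42.2) and MLE-BDL pigs 47.9 to 78 (median 52.5), again with no overlap. The log2 fold changes were 0.42 (SE 0.10, adjusted p = 0.00253) in ENT and 0.44 (SE 0.12, adjusted p = 0.00564) in MLE, and 0.17 in SLE (adjusted p = 0.393). ILK rose by 0.17 in ENT (adjusted p = 0.0284), lost in 4 of 22 fits without 1 pig (at most 0.0663, without ENT-BDL replicate 8). PARVA was at -0.23 in ENT (adjusted p = 0.0564) and fell in the fits without the matching libraries, with the identifier block and in DESeq2. PTK2, focal adhesion kinase, was called on no diet (-0.01, 0.15 and 0.07).

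Among 9 integrin chains, ITGA2, ITGA3 and ITGB5 rose in ENT and ITGA5 fell, ITGA3 rose in SLE, and ITGA2 rose in MLE. ITGA2, the collagen-binding chain of the alpha-2 beta-1 receptor, ran from 4.98 to 15.8 CPM (median 7.6) in ENT-sham and from 7.69 to 21.1 (median 11.9) in ENT-BDL. In MLE it ran from 6.86 to 13.8 (median 11.2) in sham and from 16.1 to 39 (median 20.9) in BDL pigs, with no overlap. Its log2 fold change was 0.72 in ENT (SE 0.17, adjusted p = 0.00214) and 1.12 in MLE (SE 0.20, adjusted p = 5.16e-05). In SLE the pigs overlapped (10.4 to 19.4, median 15.8, after sham and 11.3 to 33.6, median 19.3, after BDL), with 0.46 (adjusted p = 0.124), although the identifier block called it there.

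ITGA3, a laminin receptor chain, was among the least abundant members. ENT-sham pigs had 1.06 to 9.6 CPM (median 1.95), where all but replicate 2 had at most 2.28, and ENT-BDL pigs had 2.47 to 9.88 (median 4.74). SLE-sham pigs had 1.22 to 2.96 (median 1.69) and SLE-BDL pigs 1.79 to 8.28 (median 3.59), and 8 of 11 BDL pigs were above every sham pig. The log2 fold change was 1.05 in ENT (SE 0.27, adjusted p = 0.00442), or 1.35 without the matching libraries, and 1.34 in SLE (SE 0.29, adjusted p = 0.00401). In MLE it was 0.56 (SE 0.32, adjusted p = 0.241), with 0.881 to 4.31 CPM (median 2.4) in sham and 2.6 to 5.29 (median 3.84) in BDL pigs. The responses of the diets were not called apart for ITGA3.

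ITGA5, the alpha chain of the main fibronectin receptor, was the only member with a difference in response between diets called in the model without a block, and other fits called other members. ENT-sham pigs had 128 to 248 CPM (median 154) and ENT-BDL pigs 111 to 171 (median 136), a fall of -0.30 (SE 0.08, adjusted p = 0.00831). SLE-sham pigs had 139 to 201 CPM (median 162) and SLE-BDL pigs 152 to 205 (median 168), with 0.11 (adjusted p = 0.531), and MLE pigs had 158 to 211 (median 200) and 152 to 193 (median 169), with -0.14 (adjusted p = 0.348). The groups overlapped on each diet. The interaction of SLE against ENT was 0.41 (SE 0.12, adjusted p = 0.0487), where 2.33% of all genes were called. It was lost in 34 of 43 fits without 1 pig (adjusted p up to 0.0932, without ENT-sham replicate 7) and with the identifier block (0.40, adjusted p = 0.0774), which called TES in its place.

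ITGB5, the beta chain of a vitronectin receptor, rose in ENT from 79.4 ± 14.9 to 101 ± 16.8 CPM (0.35, SE 0.10, adjusted p = 0.00814). ITGB1, the common beta chain and the most abundant integrin gene per kilobase (37.6 CPM per kb), was called on no diet, with 0.16, 0.15 and 0.23 (adjusted p = 0.124, 0.297 and 0.061). ITGA1, ITGA6, ITGAV and ITGB4 were also called on none. ITGA1 and ITGA2 lie next to each other on chromosome 16 (32130265 to 32309917 and 32336240 to 32440311), and ITGA1 had log2 fold changes of -0.00, -0.04 and -0.13, where ITGA2 had 0.72, 0.46 and 1.12.

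**Figure D4:**
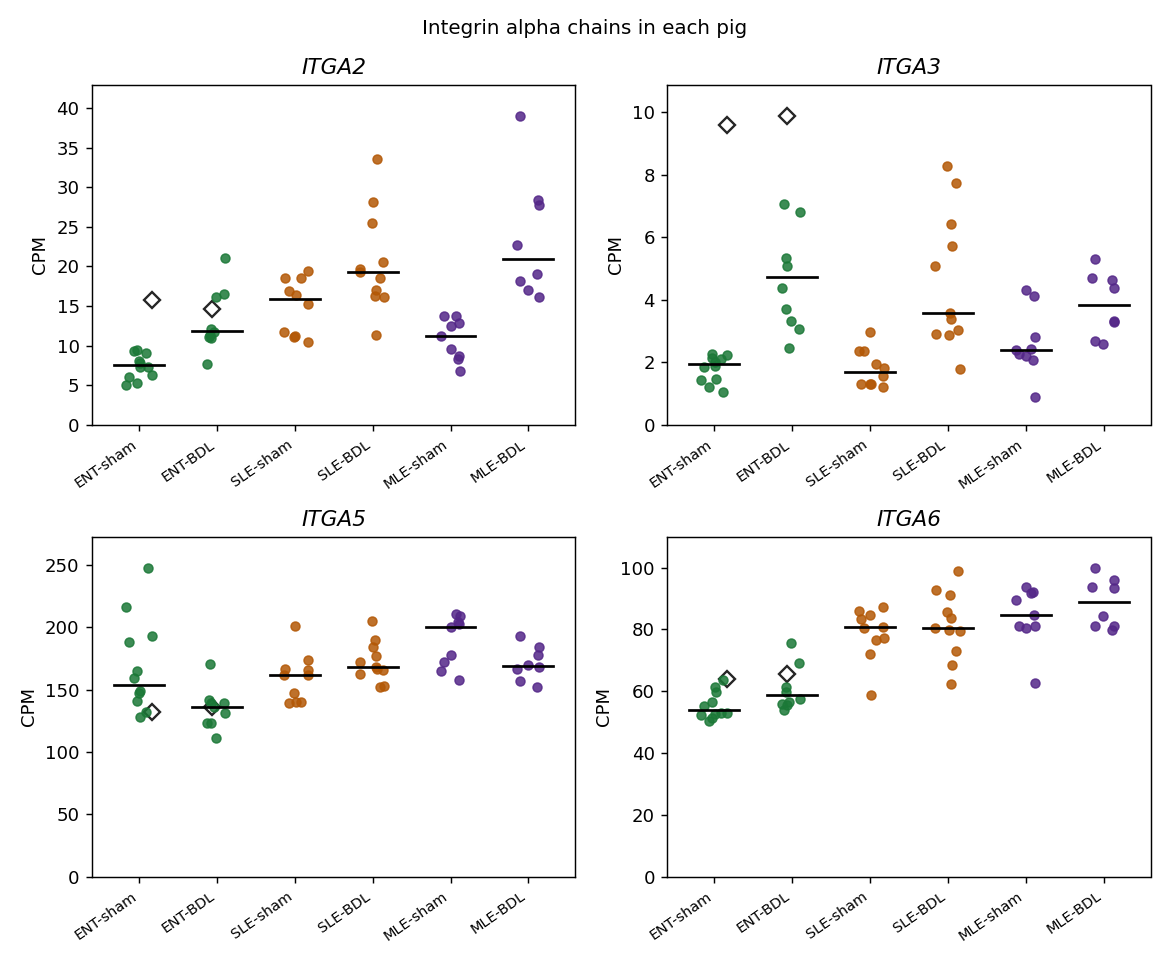
CPM of ITGA2, ITGA3, ITGA5 and ITGA6 in each pig (y axis, linear from 0) by group (x axis), with 1 point per pig, the group median as a line and open diamonds for the matching ENT libraries. ITGA2 and ITGA6 medians stand higher on SLE and MLE than on ENT after the same surgery, the ITGA3 diamond in ENT-sham stands at 9.6 CPM where the other ENT-sham pigs reach 2.28, and the ITGA5 median is lowest in ENT-BDL.

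Of the contractile genes, TPM4, a short nonmuscle tropomyosin, rose on every diet. ENT-sham pigs had 107 to 193 CPM (median 116, at most 134 without replicate 2) and ENT-BDL pigs 144 to 287 (median 166), and without the matching libraries the groups did not overlap. SLE pigs had 119 to 186 (median 153) after sham and 144 to 303 (median 191) after BDL, and MLE pigs 106 to 160 (median 137) and 160 to 250 (median 196). The log2 fold changes were 0.53 (SE 0.10, adjusted p = 0.000172), 0.41 (SE 0.11, adjusted p = 0.0162) and 0.55 (SE 0.12, adjusted p = 0.000753), and the SLE value was 0.36 with the identifier block (adjusted p = 0.0536) and missed the threshold without SLE-BDL replicate 9 (adjusted p = 0.0556). TPM1 was called on no diet (0.09, 0.18 and 0.28), nor was MYL9, the regulatory light chain (0.14, 0.19 and 0.09). MYH9, the heavy chain of nonmuscle myosin IIA, was at 0.24, 0.25 and 0.29 and was called in MLE alone (adjusted p = 0.0407), a call lost in 11 of 17 fits without 1 pig (adjusted p up to 0.0981, without MLE-BDL replicate 3). The identifier block also called MYH9 in SLE (0.38, adjusted p = 0.0037) and TPM1 in MLE (0.30, adjusted p = 0.0462).

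Among the LIM and actin-binding genes, TAGLN2, transgelin 2, rose on the parenteral diets. SLE-sham pigs had 190 to 263 CPM (median 206) and SLE-BDL pigs 205 to 339 (median 282), and 7 of the 11 lay higher than all sham pigs. MLE-sham pigs had 151 to 252 (median 188) and MLE-BDL pigs 221 to 287 (median 239). The log2 fold changes were 0.34 (SE 0.08, adjusted p = 0.00837) and 0.37 (SE 0.09, adjusted p = 0.0027). In ENT both groups averaged 215 CPM (SD 27.2 and 20.5) and the log2 fold change was 0.00 (SE 0.08, adjusted p = 0.995). The interaction of SLE against ENT was 0.34 (SE 0.11, adjusted p = 0.0945) and that of MLE against ENT 0.37 (SE 0.12, adjusted p = 0.274), so the difference between diets was not past the threshold.

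TES, testin, rose in ENT from 13.7 ± 4.05 to 23.2 ± 7.07 CPM (0.75, SE 0.16, adjusted p = 0.000624), and was at -0.01 in SLE and 0.37 in MLE. Its interaction of SLE against ENT was -0.77 (SE 0.23, adjusted p = 0.062), -0.85 (adjusted p = 0.0191) without the matching libraries and -0.86 (adjusted p = 0.0285) with the identifier block. CSRP1 was called on no diet (0.16, 0.01 and 0.03), and neither was CAV1, caveolin 1 (-0.13, 0.09 and -0.17), whose pigs ranged from 5.24 to 30.7 CPM in SLE-sham.

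For the interactions of MLE, edgeR called 0 of the 37 genes against ENT (0.0617% of all genes) and 0 against SLE (0.265% of all genes), with 4 members at an unadjusted p under 0.05 in each, where 1466 and 1582 of all 16210 genes were, and DESeq2 also called 0 in both. For SLE against ENT DESeq2 called 2, ITGA5 and TES. Without the matching libraries ANKRD1 was also called for SLE against ENT (-2.46, adjusted p = 0.000148, against -0.58 and adjusted p = 0.785 with all pigs).

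Between diets, some members differed from ENT-sham in sham pigs on parenteral nutrition. With all pigs, the shares called were not far from those of all genes, so they do not set the list apart. SLE-sham was higher than ENT-sham in 6 of 37 genes (16.2%, against 13.9% of all genes) and lower in 3 (8.11%, against 13.6%). MLE-sham was higher in 6 (16.2%, against 10.7%) and lower in 2 (5.41%, against 10.4%). Without the matching ENT libraries SLE-sham was higher in 9 and lower in 3, and MLE-sham higher in 8 and lower in 0. The shares of all genes given here belong to the fit with all pigs, so these counts cannot be set against them. These comparisons share the ENT-sham pigs. Among BDL pigs, SLE was higher than ENT in 8 genes (21.6%, against 10.4%) and lower in 3 (8.11%, against 9.17%), and MLE was higher in 8 (21.6%, against 8.53%) and lower in 2 (5.41%, against 8.27%), and these share the ENT-BDL pigs.

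ITGA6, a laminin receptor chain, was higher on both parenteral diets whether or not the bile duct was tied. ENT-sham pigs had 50.3 to 64.1 CPM (median 54), SLE-sham pigs 58.7 to 87.4 (median 80.6) and MLE-sham pigs 62.6 to 93.6 (median 84.6). ENT-BDL pigs had 54 to 75.7 (median 58.6), SLE-BDL pigs 62.3 to 98.8 (median 80.5) and MLE-BDL pigs 79.8 to 100 (median 88.8). Every MLE-BDL pig was above every ENT-BDL pig. The log2 differences from ENT were 0.49 (adjusted p = 1.68e-07) and 0.59 (adjusted p = 9.19e-09) after sham and 0.41 (adjusted p = 2.13e-05) and 0.54 (adjusted p = 6.81e-07) after BDL for SLE and MLE, with SE of 0.07 to 0.08. BDL was not called for it (0.12, 0.05 and 0.08).

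ITGA2 was higher than in ENT in SLE-sham (0.88, SE 0.17, adjusted p = 6.98e-05), SLE-BDL (0.62, SE 0.18, adjusted p = 0.00809) and MLE-BDL (0.82, SE 0.19, adjusted p = 0.00119). TES was higher in SLE-sham (0.98, SE 0.16, adjusted p = 4.82e-06) and MLE-sham (0.74, SE 0.17, adjusted p = 0.000848). ITGB5 went the other way, with -0.28 in SLE-sham (adjusted p = 0.0295), -0.43 in SLE-BDL (adjusted p = 0.00137) and -0.60 in MLE-BDL (SE 0.11, adjusted p = 6.5e-05). VASP, which promotes filament growth at adhesions, was higher in SLE-sham (0.33), SLE-BDL (0.32) and MLE-BDL (0.36).

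Other members differed from ENT by less or in fewer groups. CSRP1 was higher in both sham groups on parenteral diets (0.30 in each), and PARVA in MLE-sham (0.30), SLE-BDL (0.34) and MLE-BDL (0.38). ACTN1 was higher in MLE-sham (0.20), SLE-BDL (0.35) and MLE-BDL (0.23), and ITGA5 in SLE-BDL (0.35) and MLE-BDL (0.34). TLN2 was higher in MLE-sham (0.43), TPM4 in SLE-sham (0.28), TAGLN2 in SLE-BDL (0.33) and MSN in MLE-BDL (0.45). PXN was lower in SLE-sham (-0.26), and LIMS1 in MLE-sham (-0.31) and SLE-BDL (-0.39). With the identifier block the MLE-sham differences of ACTN1, TLN2, PARVA, LIMS1 and ANKRD1 and the MLE-BDL differences of ACTB, ACTN1, PARVA and ITGA5 were not past the threshold. The block also called differences from ENT that were not called without it, namely VASP (0.39, adjusted p = 0.00599) and ACTG1 (-0.46, adjusted p = 0.0132) in MLE-sham, TAGLN2 in MLE-BDL (0.26, adjusted p = 0.0246), and TLN1 (0.24, adjusted p = 0.0262), ZYX (0.38, adjusted p = 0.0156) and ITGAV (0.27, adjusted p = 0.0379) in SLE-BDL. In the model without a block, calls lost in fits without 1 pig were ACTN1 (lost in 11 of 21 fits for MLE-sham and 7 of 18 for MLE-BDL), TPM4 (12 of 22 for SLE-sham), ITGB5 (4 of 22 for SLE-sham) and LIMS1 (3 of 21 for MLE-sham, with an adjusted p of 0.111 without ENT-sham replicate 2). Without the matching libraries MLE-sham was also higher than ENT-sham in VASP (0.25, adjusted p = 0.0426, against 0.23 and 0.0608) and ITGA2 (0.55, adjusted p = 0.0149, against 0.42 and 0.0824), LIMS1 in MLE-sham was no longer called (-0.19, adjusted p = 0.0865), and MLE-BDL was also higher than ENT-BDL in FLNA (0.35, adjusted p = 0.049, against 0.26 and 0.243). Where only the groups compared were fitted, the BDL differences of ACTB from ENT on both diets, of ACTN1 in MLE-BDL and the sham difference of LIMS1 were not called.

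The 1 member with a called sham difference over 2-fold was ANKRD1, and it rested on 1 library. MLE-sham (0.34 ± 0.205 CPM) was below ENT-sham (2.3 ± 5.92) by -2.77 (SE 0.64, adjusted p = 0.000936). Without ENT-sham replicate 2, ENT-sham averaged 0.591 ± 0.342 CPM, and the difference of -0.78 missed the threshold (adjusted p = 0.151). SLE-sham (1.07 ± 0.486) was at -1.15 against ENT-sham with all pigs (adjusted p = 0.101), and without both matching libraries ANKRD1 was higher in SLE-sham by 0.85 (adjusted p = 0.0428).

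The 2 lipid emulsions were seldom told apart by these genes. Among sham pigs MLE was higher than SLE in 1 gene, ITGB4, against 0.37% of all genes, and lower in 0, against 0.629%. ITGB4, the beta chain of the hemidesmosome integrin, had 3.13 to 10.8 CPM (median 5.64) in SLE-sham, 6.42 to 12.7 (median 9.91) in MLE-sham and 6.06 to 14.4 (median 9.14) in ENT-sham. MLE was above SLE by 0.76 (SE 0.19, adjusted p = 0.0286), and SLE below ENT by -0.77 (SE 0.18, adjusted p = 0.000601). The former was 0.57 with the identifier block (adjusted p = 0.104) and was lost in 7 of 19 fits without 1 pig (adjusted p up to 0.0765, without MLE-sham replicate 4). Without the matching ENT libraries, whose loss changes the shared estimate of spread, ANKRD1 was also lower in MLE-sham than in SLE-sham (-1.63, adjusted p = 0.012, against -1.62 and 0.304). Among BDL pigs 0 genes were higher (0.216% of all genes) and 0 lower (0.691%) in edgeR, with 1 member (and 2106 of all 16210 genes) at an unadjusted p under 0.05, and DESeq2 called 0.

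**Figure D5:**
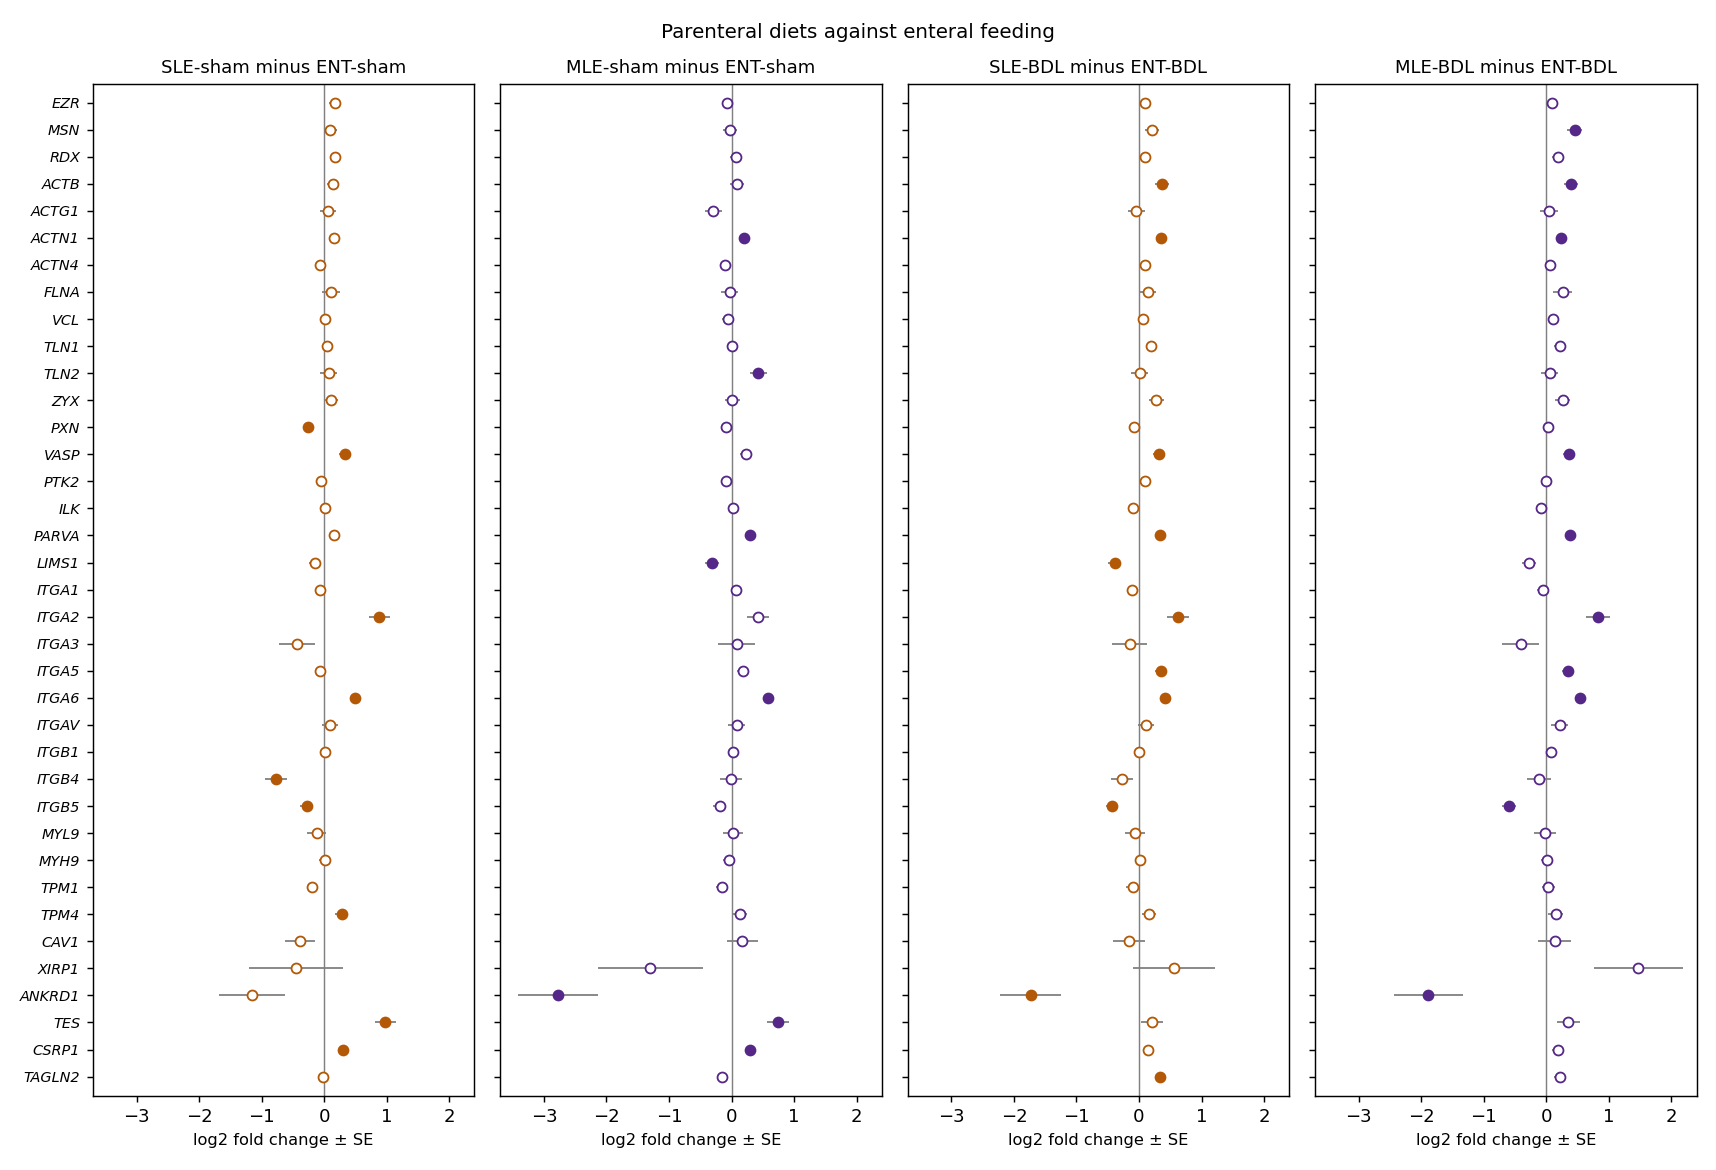
Log2 difference from ENT (x axis, with its SE as a horizontal line) of each of the 37 genes for SLE-sham, MLE-sham, SLE-BDL and MLE-BDL. Filled points passed an adjusted p under 0.05 in edgeR. ITGA6 is filled in all 4 panels at 0.41 to 0.59, and the ANKRD1 point at -2.77 in MLE-sham fell to -0.78 without the matching ENT libraries.

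Whether pairs of genes varied together among pigs of the same group was examined for 6 pairs, with log2 CPM after group means were subtracted, over 60 pigs, by permuting pigs within groups (100000 permutations, two-sided, adjusted over the 6 pairs). ACTB and ACTG1 varied together (Pearson's r = 0.65, permutation p = 1e-05, the smallest the permutations can give, adjusted p = 3e-05, Spearman's correlation = 0.62, permutation p = 1e-05). Leaving out the 2 pigs farthest from the median gave r = 0.62. MYL9 followed ACTA2, the smooth muscle actin of stellate-type and vessel wall cells (r = 0.62, permutation p = 1e-05, adjusted p = 3e-05, Spearman's correlation = 0.63, permutation p = 1e-05, and r = 0.64 without the farthest pigs). MSN followed PTPRC, the leukocyte gene of CD45 (r = 0.50, permutation p = 0.00035, adjusted p = 0.0007, Spearman's correlation = 0.53, permutation p = 3e-05, and r = 0.59). With the identifier number subtracted as well, these were 0.57, 0.65 and 0.52.

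For the other 3 pairs, r was smaller without the 2 farthest pigs. EZR with ITGA2 had r = 0.31 (permutation p = 0.024, adjusted p = 0.036) but Spearman's correlation = 0.18 (permutation p = 0.185), and r = 0.11 without the 2 farthest pigs. EZR with KRT19 had r = 0.28 (permutation p = 0.0564, adjusted p = 0.0677) and Spearman's correlation = 0.14 (permutation p = 0.302), and r = 0.11. XIRP1 with ANKRD1 had r = 0.31 (permutation p = 0.0752, adjusted p = 0.0752) and Spearman's correlation = -0.07 (permutation p = 0.621), and r = -0.08. With the identifier number subtracted, EZR with ITGA2 had r = 0.33 (permutation p = 0.0102, adjusted p = 0.0122, Spearman's correlation 0.28, adjusted p = 0.0441) and EZR with KRT19 had r = 0.42 (permutation p = 0.00419, adjusted p = 0.00628, Spearman's correlation 0.36, adjusted p = 0.0118), while XIRP1 with ANKRD1 had r = 0.12 (permutation p = 0.4, adjusted p = 0.4). Without the matching ENT libraries, over 58 pigs, these were 0.15, 0.03 and -0.19 (permutation test, adjusted p = 0.327, 0.799 and 0.255).

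Further genes of the same pathways were taken from other lists, also chosen with earlier results of these data known. Their shares stand beside the 8.89%, 2.97% and 7.85% of all genes that rose in ENT, SLE and MLE. The shares of all genes that fell were 8.53%, 1.57% and 6.58%. Of 37 tested other integrins and adhesion adaptors, 12 rose (32.4%) and 2 fell in ENT, 4 rose (10.8%) and 0 fell in SLE, and 12 rose (32.4%) and 1 fell in MLE. CAVIN1, a caveola coat protein, rose on every diet (0.77, 0.63 and 0.97), as did PDLIM1 (0.29, 0.31 and 0.57). ITGB3, the beta chain of a vitronectin receptor, rose in ENT (1.64) and MLE (1.47) and was at 0.54 in SLE (adjusted p = 0.156), and ITGA11, a collagen receptor chain of fibroblasts, rose in ENT (0.86) and MLE (1.31) and was at 0.36 in SLE (adjusted p = 0.501).

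Of 39 genes of actin turnover, 11 rose (28.2%) and 1 fell in ENT, 2 rose in SLE (5.13%, against 2.97% of all genes), and 10 rose (25.6%) and 1 fell in MLE. MARCKSL1 rose on every diet (0.85, 0.48 and 0.83), and FSCN1, a bundling protein, DSTN, a filament-severing protein, and TMSB10, a monomer-binding peptide, rose in ENT and MLE.

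Of 19 tested smooth muscle type and SRF target genes, 8 rose (42.1%) and 2 fell in ENT, 3 rose in SLE (15.8%), and 5 rose (26.3%) and 1 fell in MLE. MYH10 and CNN3, which nonmuscle cells also use, rose on every diet (MYH10 by 0.60, 0.41 and 0.58, and CNN3 by 0.70, 0.36 and 0.47). ACTG2, the enteric smooth muscle actin, fell in ENT (-1.12, adjusted p = 0.0364) and MLE (-1.51, adjusted p = 0.0153). Of 17 tested YAP and TEAD genes and targets, 6 rose in ENT (35.3%), 4 in SLE (23.5%) and 7 in MLE (41.2%), and 0 fell. AJUBA (1.43, 0.86 and 1.52), CTGF (0.87, 1.01 and 0.96) and LATS2 (0.25, 0.28 and 0.31) rose on every diet.

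Of 12 tested partners of ezrin, radixin and moesin, 2 rose (16.7%) and 2 fell in ENT, 1 rose in SLE (8.33%) and 0 were called in MLE. SLC9A3R1 and SLC9A3R2, the scaffolds NHERF1 and NHERF2 that bind ezrin, fell in ENT (-0.31, adjusted p = 0.0168, and -0.42, adjusted p = 0.00451) while EZR rose. STK10, a kinase of these linkers, rose in ENT (0.20, adjusted p = 0.0483), and CLIC5 rose in SLE (0.98, adjusted p = 0.0223).

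Markers of other cell types that a piece of liver holds were counted in the same way, and several of these counts are of 1 or 2 genes. Of all genes, 8.89%, 2.97% and 7.85% rose in ENT, SLE and MLE, and 8.53%, 1.57% and 6.58% fell. Of 14 stellate cell and myofibroblast markers, 2 rose (14.3%) and 1 fell in ENT, 2 rose in SLE (14.3%), and 4 rose (28.6%) and 1 fell in MLE. They summed to 1527 to 4533 CPM in ENT-sham (at most 2539 without replicate 2), 1749 to 4543 in ENT-BDL, 1553 to 4174 in SLE-sham, 1682 to 8773 in SLE-BDL, 1556 to 3553 in MLE-sham and 2463 to 6452 in MLE-BDL. Of 10 hepatocyte markers, 5 fell and 1 rose in ENT, 0 were called in SLE and 6 fell in MLE. Their sums ran from 68494 to 147474 CPM in ENT-sham, 68747 to 130035 in ENT-BDL, 96132 to 127416 in SLE-sham, 73967 to 146784 in SLE-BDL, 88490 to 146587 in MLE-sham and 69845 to 93021 in MLE-BDL.

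For the lists that follow, the same shares of all genes apply, 8.53%, 1.57% and 6.58% lower and 8.89%, 2.97% and 7.85% higher in ENT, SLE and MLE. Of 12 endothelial markers, 2 fell in ENT, 0 were called in SLE and 2 fell in MLE. Of 10 macrophage markers, 1 rose (10%, against 8.89% of all genes) and 2 fell in ENT, 1 rose in SLE, and 1 rose and 3 fell in MLE. Of 11 lymphocyte and neutrophil markers, 1 rose in ENT (9.09%, also near the share of all genes), 0 were called in SLE, and 1 rose and 1 fell in MLE, with sums of 26.1 to 77 CPM in MLE-sham and 31.9 to 79.9 in MLE-BDL, where MSN rose. Of 8 erythroid markers 2 fell in MLE and 0 were called in ENT or SLE. The part of these cell types in the changes of the 37 genes was not tested.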

How the data were processed

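Liver RNA of 60 pigs was sequenced from poly-A libraries made with a kit that does not mark strand, so reads of a gene and an antisense partner cannot be told apart. The deposited values were raw read counts per gene. According to the submitters' processing notes and the methods, the authors trimmed reads and used HISAT2 2.0.5, StringTie 1.3.3 and featureCounts 1.5.0-p3 with the build Sscrofa11.1. Gene positions and lengths were taken from the count table. The 24 features without a gene name were left out (0.00842 to 0.0407% of counts). Totals per library were 14469788 to 21374161 (median 17254606), and precision at low genes is limited by counting, with 3 counts taken as the floor.

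Groups came from the labels of diet and surgery. Counts were filtered by expression, TMM-scaled and fitted in R 4.3.3 with edgeR 4.0.16 (quasi-likelihood test, robust, 1 model of 6 groups), and the Benjamini-Hochberg adjustment ran over 16210 genes. Nothing says that the pigs of a group came from separate litters, so p-values measure the spread between these pigs. The fit was also run on simulated counts of independent pigs with a common spread. That run does not cover the matching libraries or pigs that share an identifier number, and no result here rests on it. Alternatives were DESeq2 1.42.0, another normalization, no filter, at least 10 counts in every pig, only the groups compared, the identifier number or the replicate number as a block, leaving out the matching libraries, a 2-fold limit, and leaving out each pig in turn. Log2 CPM for gene pairs had a prior count of 2. Values per pig, permutations and figures used scipy 1.17.1, matplotlib 3.10.9, pandas 2.3.3 and numpy 2.4.6 under Python 3.11.15.

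The members, the gene lists and the marker lists were chosen with earlier results of these data known. XIRP1, EZR, ACTB and members called on at least 2 diets, in an interaction, or between diets at over 2-fold were selected to be given by group, and the rest by counts and values. Outside that rule, ITGA6 and ITGB4 were also given with ranges by group. Of each further list, up to 4 genes called on the most diets were named. The result of 1 further list is not reported here. Replicate numbers did not pair pigs: the residuals of 137 pairs with the same number in different groups had a mean correlation of 0.00465 (-0.231 to 0.381). Pairs with the same identifier number did deviate together (177 pairs, mean 0.133, up to 0.639, against -0.0178 for 1318 other pairs), a structure that the main model leaves out and the identifier block takes in.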

Additional observations from a re-analysis of the deposited data

Results flagged for a closer look

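Among the 13 members selected by the rule above for values by group, the ENT-BDL, SLE-sham, MLE-sham and MLE-BDL groups, 52 in all over these genes, were examined for a pig far from the others, and 3 held one, where chance alone gives about 1 in 20 groups. ENT-sham and SLE-BDL, with 12 and 11 pigs, were not examined in this way. ACTB was lowest in SLE-sham replicate 9, at 576 CPM, while the other 9 pigs had 680 to 788. ITGA3 was lowest in MLE-sham replicate 7, at 0.881 CPM, while the other pigs had 2.06 to 4.31. TPM4 was highest in ENT-BDL replicate 4, at 287 CPM, while the other pigs had 144 to 202. That pig was the lowest or highest of its group for 21 of the 37 genes. ITGA5 responded differently to BDL on SLE and on ENT, with an interaction of 0.41 on the log2 scale (SE 0.12, adjusted p = 0.0487 in edgeR), and 34 of 43 fits without 1 pig did not call it.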

How the results depend on the processing

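None of the called changes of single genes reversed under the alternatives. Of 590 values, 546 stayed past the threshold and 44 did not, and of 1541 values without 1 pig 152 did not. The filter of at least 10 counts in every pig removed XIRP1 and ANKRD1. Their calls were not examined under it, and it left 66 values where most other alternatives had 75. Only fitting the groups compared gave 9 members called with BDL in ENT in place of 15, 2 in place of 1 between MLE-sham and SLE-sham, and 0 in place of 1 for the SLE against ENT interaction, and left XIRP1 in ENT at 2.03, no longer past the threshold. The interaction count was also 0 with no filter and with at least 10 counts in every pig, 2 with DESeq2 and 3 without the matching libraries. The identifier block gave 5 members in place of 8 between MLE-sham and ENT-sham, and 0 between MLE-sham and SLE-sham, where leaving out the matching libraries gave 2. Asking for over 2-fold as well left 3 members on each diet for BDL, 0, 1 and 0 between sham groups (SLE and MLE against ENT, MLE against SLE), 1 and 1 between BDL groups (SLE and MLE against ENT) and 0 interactions. For the gene pairs, r of XIRP1 with ANKRD1 turned to -0.19 and that of EZR with ITGA2 fell to 0.15 without the matching libraries, and that of EZR with KRT19 was 0.42 with the identifier number subtracted. The cause of these changes was not tested, except that fewer pigs enter the fits of only the groups compared.

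Without 1 pig, the number of members called with BDL ran from 12 to 16 in ENT, 4 to 8 in SLE (4 without SLE-BDL replicate 9) and 11 to 13 in MLE. It ran from 0 to 1 between MLE-sham and SLE-sham and from 0 to 3 for the SLE against ENT interaction (3 without ENT-sham replicate 2). The XIRP1 value in ENT ran from 1.33 to 5.14.

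With the replicate block 13 members were called with BDL in ENT, 8 in SLE and 14 in MLE, and 2 in the SLE against ENT interaction (ITGA5 and TAGLN2). It lost VCL, PXN and ILK with BDL in ENT, ITGB5 and TPM4 between SLE-sham and ENT-sham, and ACTN1 between MLE-sham and ENT-sham. The replicate numbers did not pair pigs. Counting limits XIRP1 and ANKRD1, of which 8 ENT-sham pigs and 4 MLE-sham pigs respectively had 3 counts or fewer.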
